A study of Mus musculus with 10 samples.

Results

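Genes of bile acid uptake, binding, export, sensing and feedback were followed in colon RNA of wild-type mice. The 9 genes were taken by name for their roles in bile acid handling: Slc10a2, Fabp6, Slc51a, Slc51b, Abcc3, Nr1h4, Gpbar1, Fgf15 and Nr0b2. All 9 were present among the 18398 genes of the deposited table. Values are FPKM, the sequenced fragments of a gene divided by its length and by the library's total, so levels of different genes are per length. There were 5 colon samples from mice on a normal diet (the controls) and 5 from mice on a diet labelled pro-inflammatory, and the comparison asks how colon expression differs between the diets. All samples share the WT genotype. The labels give no strain, age, feeding time or part of the colon. Nor do they state that each sample is a different animal, so p-values measure the spread among these samples only, and some of it may be technical.

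Bile acids are made in the liver, secreted into the gut and mostly taken back in the ileum, the last part of the small intestine, from where they return to the liver. In the enterocyte, SLC10A2 (ASBT) imports them from the lumen, FABP6 binds them in the cytosol, and the SLC51A and SLC51B pair (OST alpha and beta), with the ABC transporter ABCC3, moves them out toward the blood. Bile acids activate the nuclear receptor FXR, encoded by Nr1h4, which drives Fabp6, Slc51a, Slc51b, Fgf15 and Nr0b2, and the surface receptor TGR5, encoded by Gpbar1. FGF15 is the hormone through which the ileum lowers bile acid synthesis in the liver. Bile acids that escape the ileum reach the colon, where bacteria convert them to secondary bile acids.

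The sequences upstream of 3 of these genes are shown because their levels differed most between libraries. They are the bases before the gene's start in RefSeq promoters of GRCm38.p6, 5′ to 3′ on the gene's strand, kept only where they also lie before the GENCODE start. Capitals mark 3 motifs searched on both strands in the 250 bases before the start, which were picked after the promoters were read. The first is the FXR-type inverted repeat, AGGTCA and its reverse complement TGACCT with any 1 base between, allowing 2 mismatches. The second is the HNF1 site, GTTAAT, any base, then ATTAA, and the third the E-box CACGTG, both exact. Fabp6 lies at chr11:43601563-43601812, Slc51a at chr16:32487880-32488129 and Slc10a2 at chr8:5105352-5105537, all on the minus strand.
Fabp6: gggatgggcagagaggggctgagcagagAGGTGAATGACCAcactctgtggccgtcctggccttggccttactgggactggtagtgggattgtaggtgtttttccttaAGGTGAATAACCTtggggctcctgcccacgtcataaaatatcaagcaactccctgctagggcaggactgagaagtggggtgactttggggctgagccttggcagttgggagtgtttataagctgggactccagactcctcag
Slc51a: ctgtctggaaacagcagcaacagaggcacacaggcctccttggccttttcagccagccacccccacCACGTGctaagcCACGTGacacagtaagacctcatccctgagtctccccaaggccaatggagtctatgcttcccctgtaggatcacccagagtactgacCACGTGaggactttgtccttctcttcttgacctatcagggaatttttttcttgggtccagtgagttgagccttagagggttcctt
Slc10a2: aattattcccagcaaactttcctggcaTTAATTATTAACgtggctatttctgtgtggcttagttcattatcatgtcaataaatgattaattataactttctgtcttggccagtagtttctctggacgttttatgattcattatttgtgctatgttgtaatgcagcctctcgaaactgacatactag
Positions are counted back from 1 at the last base shown. Fabp6 held the inverted repeat at 222 to 210 and at 142 to 130, each with 2 mismatches. Of 32851 RefSeq promoters, 0.959% held such a match. Slc51a held 3 E-boxes, at 184 to 179, 172 to 167 and 85 to 80, and 0.0609% of promoters held 3 or more, while 6.02% held at least 1. Slc10a2 held an HNF1 site at 159 to 148, a match found in 0.0609% of promoters. Its RefSeq start lies 64 bases beyond the stretch shown, which ends at the GENCODE start. Promoters were matched for 7 of the 9 genes, and among the other 4 only Nr0b2 held any of the motifs, an E-box at 195 to 190 bases before the start. The matches describe letters and were not tested for binding.

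Each library held 15652783 to 18341956 reads on genes, recovered from the deposited FPKM. The tissue label was checked against markers. The summed level of 9 of 9 colonocyte markers ran from 2111 to 2662 FPKM on the normal and from 2496 to 6086 on the pro-inflammatory diet. Some libraries stood apart before any bile acid gene is considered. Hoxb13, a homeobox gene of the distal colon (chromosome 11, 96194316 to 96197447, plus strand, GRCm38), was at 211, 262, 218, 333 and 322 FPKM in normal diet libraries 1 to 5. In pro-inflammatory diet libraries 1 to 5 it was at 312, 0.417, 292, 341 and 20.9. Libraries 2 and 5 of that diet were thus far below the other 8. The sum of 5 of 6 distal markers was 5.86 and 32.3 in them and 261 to 420.0 in the other 8, all 5 genes being lowest in these 2. The sum of 6 of 6 proximal Hox genes was 121 and 82.9 against 21.1 to 29.3, with 4 of the 6 having their 2 highest values in these 2. Hoxc8 and Hoxc9 did not, at no more than 0.190 and 0.0832 FPKM in any library. In the other 8, Hoxb9 alone was at 18.8 to 26.1. Normal diet library 4 stood apart in Paneth cell markers, where 6 of 6 genes summed to 242, compared with 6.70 to 34.3 in the other 9 libraries. Of these, 4 of 6 were highest there, mainly Defa24 at 117 and Lyz1 at 64.6 FPKM. Mmp7, at 3.36, was higher in pro-inflammatory diet libraries 2 and 5 (5.12 and 4.73), and Itln1, at 18.1, in library 5 (19.9). Defa17 of that list was at 5.79 FPKM there and at 0 in the other 9 libraries. Pro-inflammatory diet libraries 1 and 3 stood apart in a list of 12 liver genes chosen after the values were seen, with sums of 318 and 303 against 19.4 to 66.0 in the other 8.

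**Figure D1:**
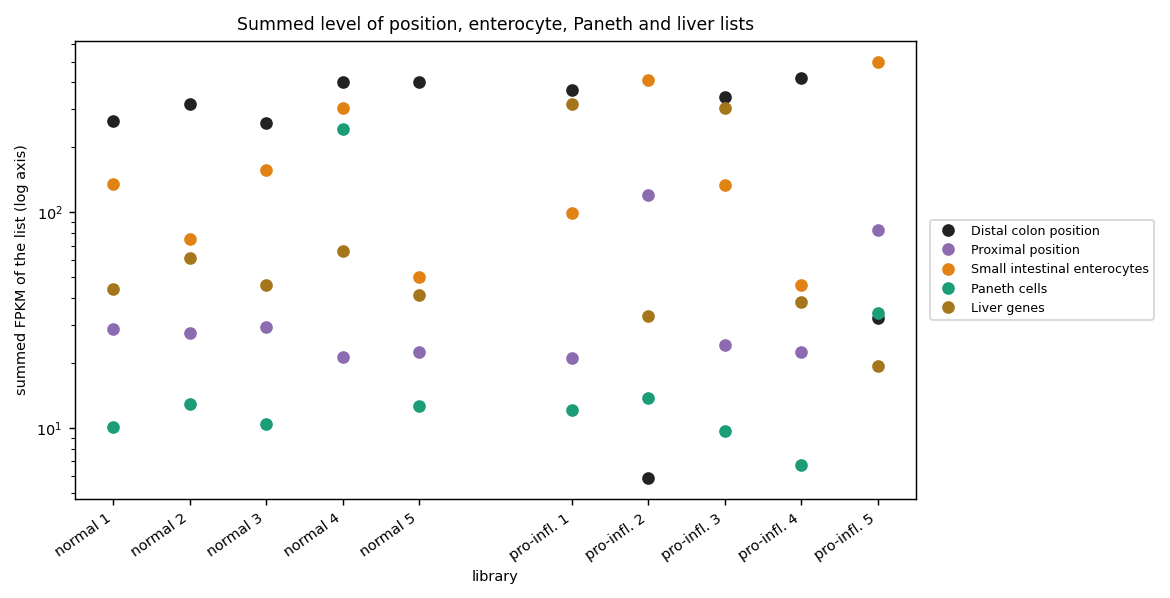
Summed FPKM of 5 marker lists in each library, on a log axis, 1 point per list and library. Distal position genes are lowest in pro-inflammatory diet libraries 2 and 5, Paneth genes highest in normal diet library 4 (242), and liver genes highest in pro-inflammatory diet libraries 1 and 3 (318 and 303).

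The uptake transporter and the cytosolic binding protein had their highest values outside the typical library of either diet. Slc10a2 (chromosome 8, 5083219 to 5105351, minus strand) was at 2.17, 2.65, 2.13, 8.03 and 4.63 FPKM in normal diet libraries 1 to 5. On the pro-inflammatory diet the 5 libraries in order held 2.43, 39.5, 3.45, 5.01 and 40.7 FPKM. The values of libraries 2 and 5 were 12.9 and 13.3 times the median of the other 8, and the other 3 lay within the normal diet range. Fabp6 (chromosome 11, 43596049 to 43601540, minus strand) was at 3.81, 5.63, 6.90, 156 and 7.81 FPKM on the normal diet. On the other diet it was at 12.1, 405, 12.3, 16.6 and 125. Without normal diet library 4, every pro-inflammatory diet library lay above every normal diet library, and with it the groups overlapped. Normal diet library 4 was set aside here with its Fabp6 value known, and the share of all genes separated in this way was not computed. That library also had the highest value of 8 of 11 small intestinal enterocyte markers, such as the sucrase-isomaltase Sis at 17.6 FPKM compared with 0.0919 to 4.12 in the other 9. The summed level of that list ran from 50.2 to 304 on the normal and from 46.2 to 500.1 on the pro-inflammatory diet, none of its genes being at 0 throughout a diet. The part of these markers in the Fabp6 values was not tested.

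The 2 subunits of the basolateral exporter differed in where they were detected. Slc51a (chromosome 16, 32474504 to 32487879, minus strand) was at 0.197, 0, 0.362, 7.16 and 0.215 FPKM in normal diet libraries 1 to 5. Its values on the pro-inflammatory diet were 0, 121, 0.141, 0.156 and 78.6. In whole reads, pro-inflammatory diet libraries 2 and 5 had 3267 and 1931, normal diet library 4 had 195 and the other 7 had between 0 and 10. Slc51b (chromosome 9, 65412714 to 65422955, minus strand) was detected in all 10, at 20.4, 17.0, 24.9, 33.3 and 19.0 FPKM on the normal diet. The pro-inflammatory diet gave 21.4, 179.7, 31.7, 17.9 and 132.9 FPKM for it. Libraries 2 and 5 held 8.60 and 6.36 times the median of the other 8, which themselves spanned a factor of 1.96. The ratio of Slc51a to Slc51b, both per length, was 0.673 and 0.591 in those 2 libraries, 0.215 in normal diet library 4 and at most 0.0146 in the other 7. In these bulk samples, fewer cells of a type and less RNA per cell cannot be told apart.

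Abcc3, the other exporter of the set (chromosome 11, 94343295 to 94392997, minus strand), was the member with the narrowest spread. It was at 39.3, 35.4, 39.7, 40.9 and 38.2 FPKM on the normal diet, with a coefficient of variation of 6.44% over the 8 libraries other than pro-inflammatory diet 2 and 5. On the pro-inflammatory diet it was at 42.7, 81.2, 42.4, 42.9 and 62.8 FPKM. All 5 values of that diet lay above all 5 of the normal diet, by a small margin in libraries 1, 3 and 4. Among all 12345 genes tested, 1.77% were separated in this direction. Over libraries 1, 3 and 4 alone the mean was 42.6 ± 0.262 FPKM (SD, n = 3), against 38.7 ± 2.09 (SD, n = 5) on the normal diet, and 5.24% of genes had these 3 libraries above all 5 of the normal diet.

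**Figure D2:**
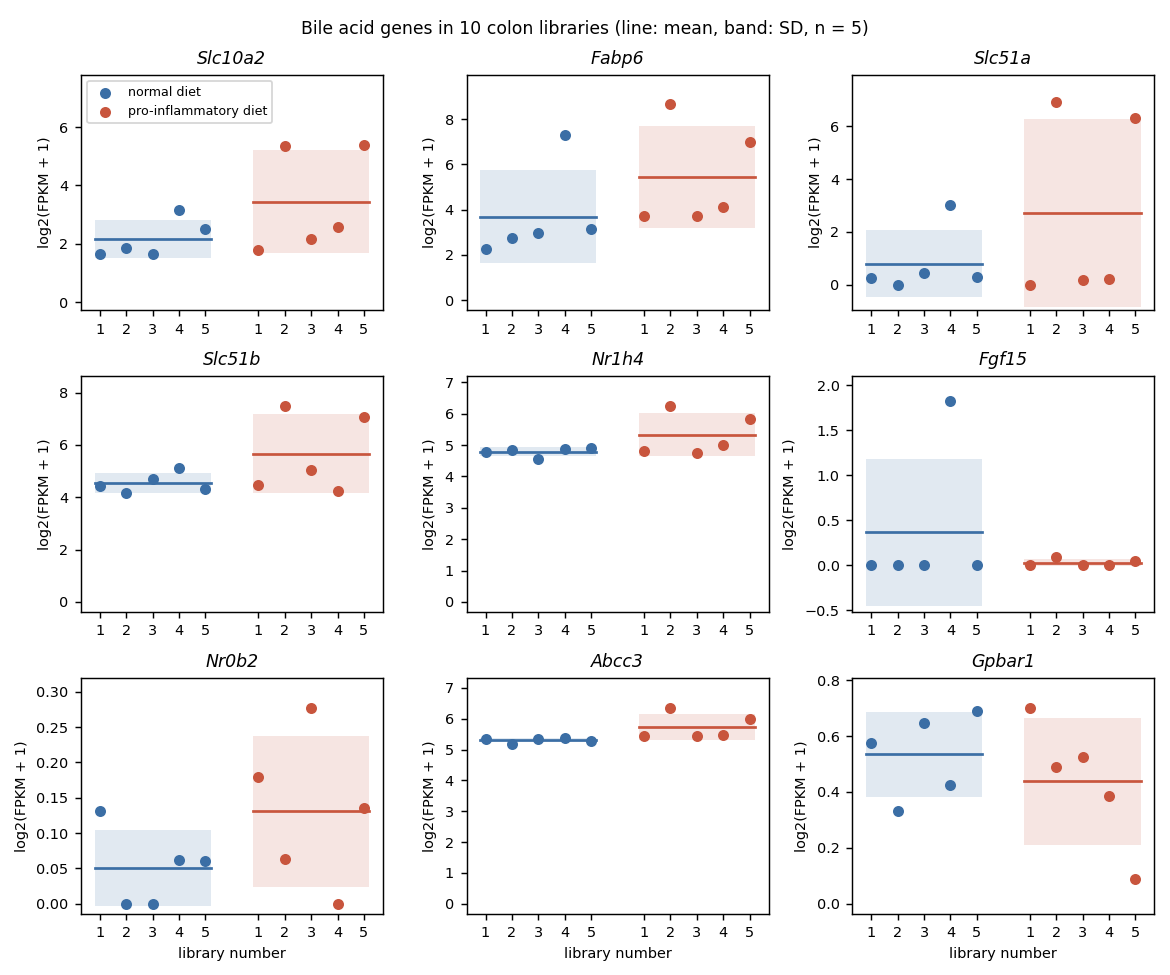
Level of the 9 bile acid genes as log2(FPKM + 1) in each library, in blue for the normal and red for the pro-inflammatory diet, with the group mean (line) and SD (band) of 5 libraries. Slc10a2, Slc51a, Slc51b, Nr1h4 and Abcc3 are highest in pro-inflammatory diet libraries 2 and 5, and Fgf15 and Fabp6 stand out in normal diet library 4.

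Of the receptors, the nuclear one was well expressed and the surface one was near the limit of detection. Nr1h4, encoding FXR (chromosome 10, 89454234 to 89533585, minus strand), was at 26.5, 27.6, 22.3, 28.6 and 29.1 FPKM on the normal diet. The pro-inflammatory diet libraries held 27.2, 75.1, 25.9, 31.0 and 56.1 FPKM. Libraries 2 and 5 were at 2.74 and 2.05 times the median of the other 8, which spanned a factor of 1.39. Gpbar1, encoding TGR5 (chromosome 1, 74278550 to 74279624, plus strand), was at 0.491, 0.258, 0.565, 0.344 and 0.614 FPKM on the normal diet and at 0.627, 0.404, 0.440, 0.305 and 0.0635 on the other. These values rest on 1 to 11 reads per library, and the groups overlapped. Gpbar1 is known from macrophages and enteroendocrine L cells. The summed level of 7 of 7 macrophage markers ran from 235 to 340.1 FPKM on the normal and from 229.7 to 412 on the pro-inflammatory diet. For 6 of 6 enteroendocrine markers it ran from 292 to 389 and from 279 to 382, but its genes differed in pro-inflammatory diet libraries 2 and 5. There, 3 of 6 (Chga, Chgb and Nts) had their 2 highest values and 2 of 6 (Insl5 and Pyy) their 2 lowest. Gcg, the glucagon gene of L cells, was at 58.1 and 63.3 FPKM in them, inside the 36.9 to 71.3 of the other 8, and Insl5, another L cell hormone, at 1.85 and 11.9 with 42.4 to 55.4 in the rest. No gene of either list was at 0 throughout a diet, and their part in the Gpbar1 values was not tested.

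The 2 feedback genes were close to absent in most libraries. Fgf15 (chromosome 7, 144896531 to 144900953, plus strand) was at 2.54 FPKM in normal diet library 4, from 81 reads (exact Poisson 95% interval 64.3 to 101). It had 2 reads in pro-inflammatory diet library 2, 1 read in library 5 and 0 in the other 7. There, 3 reads, the limit set here for a count of 0, would have given 0.0903 to 0.106 FPKM. The exact Poisson 95% interval of a count of 0 reaches somewhat higher, to 3.69 reads. Such intervals and limits cover counting error only. In the libraries with the most Slc51a reads (3267 and 1931) Fgf15 was therefore at 2 and 1 reads, whereas normal diet library 4 had 195 reads of Slc51a and 81 of Fgf15. Nr0b2, encoding the FXR-induced repressor SHP (chromosome 4, 133553376 to 133556536, plus strand), had 15 reads in all. It was at 0.0948, 0, 0, 0.0442 and 0.0431 FPKM on the normal diet and at 0.132, 0.0446, 0.212, 0 and 0.0980 on the pro-inflammatory diet. No difference in Nr0b2 between the diets was detectable at this depth.

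The order of the members within a library changed with these shifts. In 7 libraries, all but normal diet 4 and pro-inflammatory diet 2 and 5, Abcc3 had the highest level per length of the 9, followed by Nr1h4 and Slc51b in either order, then Fabp6 and Slc10a2. Nr1h4 and Slc51b were 26.8 ± 2.72 and 22.9 ± 6.50 FPKM (SD, n = 5) on the normal diet, a gap within their spread. In pro-inflammatory diet library 2 the order was Fabp6, Slc51b, Slc51a and Abcc3, and in library 5 it was Slc51b, Fabp6, Slc51a and Abcc3. Normal diet library 4 had Fabp6 first and Abcc3 second. The ratio of Fabp6 to Slc10a2 was 19.4 in that library and 10.3 in pro-inflammatory diet library 2. It was 3.07 in pro-inflammatory diet library 5, inside the range of 1.69 to 4.96 of the other 7. The ratio of Slc51a to Fabp6 was 0.0459 in normal diet library 4, against 0.299 and 0.630 in pro-inflammatory diet libraries 2 and 5.

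**Figure D3:**
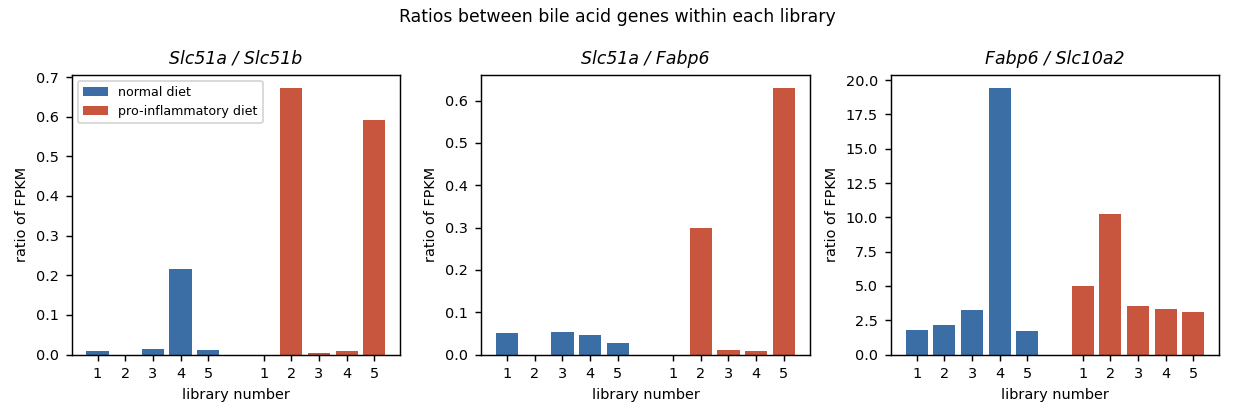
Ratio of FPKM between pairs of bile acid genes within each library, 1 bar per library, in blue for the normal and red for the pro-inflammatory diet. Pro-inflammatory diet libraries 2 and 5 have Slc51a to Slc51b ratios of 0.673 and 0.591, normal diet library 4 has 0.215, and the ratio of Fabp6 to Slc10a2 is highest in normal diet library 4 (19.4).

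Set against Hoxb13 in each library, several members were highest where Hoxb13 was lowest. The 2 libraries with the lowest Hoxb13, pro-inflammatory diet 2 and 5, were the 2 highest of 10 for Slc10a2, Slc51a, Slc51b, Nr1h4 and Abcc3, which is 5 of the 6 members with a mean of at least 1 FPKM. Over all 12345 genes tested, 13.9% had their 2 highest values in these libraries. For Fabp6, normal diet library 4 (156) lay between them. Library 2, with less Hoxb13 than library 5 (0.417 and 20.9 FPKM), had the higher value of Fabp6, Slc51a, Slc51b, Nr1h4 and Abcc3, while Slc10a2 was about equal in both (39.5 and 40.7). Because these 2 libraries lie apart in Hoxb13, no coefficient over all 10 is given. Among the other 8, where Hoxb13 spanned 211 to 341 FPKM, Slc10a2 was higher in libraries with more Hoxb13 (Pearson's r = 0.772, exact permutation p = 0.0223, adjusted p = 0.0669; Spearman's rho = 0.881, p = 0.00724, adjusted p = 0.0321; n = 8). Spearman's rho was 0.857 for Fabp6 (exact permutation p = 0.0107, adjusted p = 0.0321; r = 0.623, p = 0.0818, adjusted p = 0.164) and 0.810 for Nr1h4 (exact permutation p = 0.0218, adjusted p = 0.0436; r = 0.758, p = 0.0194, adjusted p = 0.0669). Slc51a, Slc51b and Abcc3 gave rho values of 0.120, 0 and 0.524 (exact permutation p = 0.779, 1 and 0.197, adjusted p = 0.935, 1 and 0.295) and r values of 0.295, 0.0921 and 0.411 (exact permutation p = 0.537, 0.831 and 0.308, adjusted p = 0.644, 0.831 and 0.462). These were 6 relations, tested two-sided and adjusted together, in 8 libraries taken after Hoxb13 was seen, so their p-values are a description only. The permutations also exchanged values across the diets. They therefore cannot separate a relation with Hoxb13 from a difference between the diets. Leaving out normal diet libraries 1 and 3, farthest from the median of Hoxb13, r went to 0.695 for Slc10a2, 0.559 for Fabp6, 0.647 for Nr1h4, 0.646 for Abcc3, 0.423 for Slc51a and 0.185 for Slc51b (n = 6). Without normal diet library 4, the signs of Slc51a and Slc51b turned (r = -0.406 and -0.176). The 3 lowest Hoxb13 values of the 8 were those of normal diet libraries 1, 2 and 3. These also had the lowest Dbp, a gene driven by the circadian clock, at 1.79 to 6.69 FPKM. The rest of the 8 held 33.5 to 54.3 FPKM of it, and pro-inflammatory diet libraries 2 and 5 held 12.4 and 20.2. These 8 libraries hold 5 of the normal and 3 of the pro-inflammatory diet, each under the 6 taken here as the minimum for a coefficient. With each diet's mean removed from both genes, r was 0.876 for Slc10a2, 0.678 for Fabp6 and 0.752 for Nr1h4 (exact permutation within diets p = 0.0111, 0.025 and 0.0181, each with an adjusted p of 0.05, at but not under the threshold). By the same measure r was 0.555 for Slc51a, 0.0698 for Slc51b and 0.0762 for Abcc3 (exact permutation p = 0.317, 0.903 and 0.932, adjusted p = 0.475, 0.932 and 0.932).

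**Figure D4:**
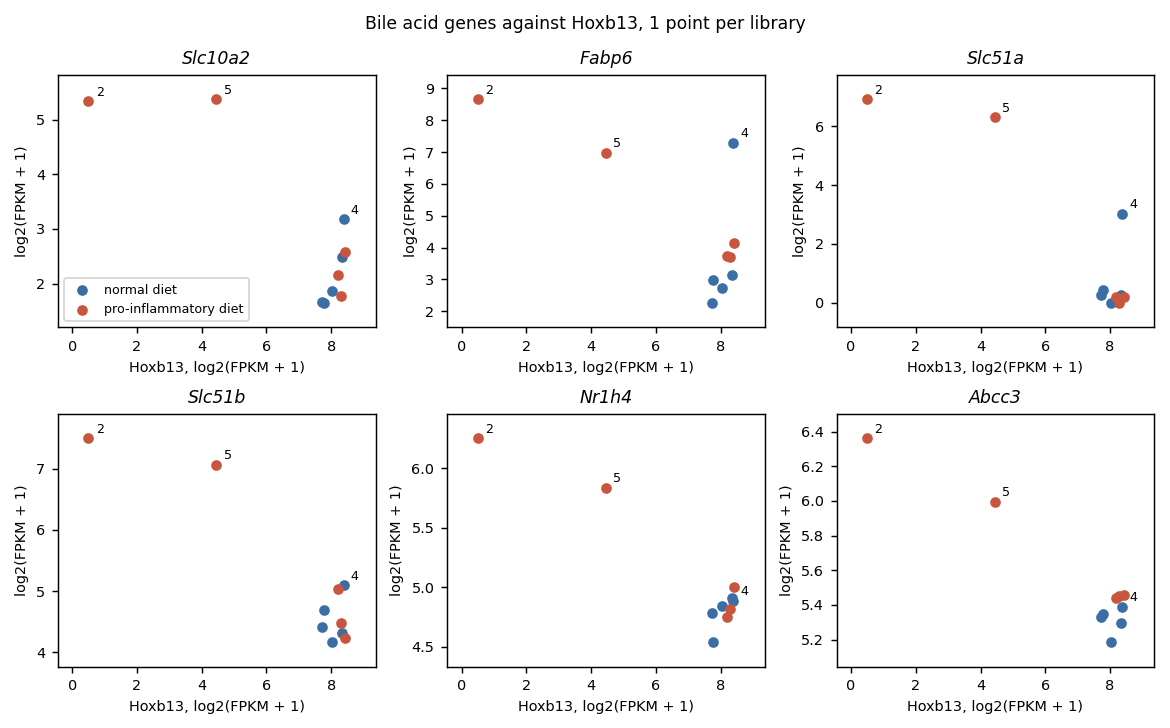
Level of 6 bile acid genes against Hoxb13, both as log2(FPKM + 1), 1 point per library, in blue for the normal and red for the pro-inflammatory diet, with normal diet library 4 and pro-inflammatory diet libraries 2 and 5 numbered. The 2 libraries with Hoxb13 at 0.417 and 20.9 FPKM lie to the left and high in each panel, and the other 8, with Hoxb13 at 211 to 341 FPKM, lie at the right.

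None of the members passed the test between the diets. Of the 9, 6 had a mean of at least 1 FPKM and were tested on log2(FPKM + 1) with limma together with all 12345 such genes. The filter left out Fgf15, Nr0b2 and Gpbar1. In limma, 0 of 6 members passed at an adjusted p of 0.05, where 0% of all genes did, and 0 passed with voom run on recovered reads. At an unadjusted p under 0.05 there was 1 of 6, Abcc3, against 17.4% of all genes. All 6 had a higher mean on the pro-inflammatory diet, with a median log2 fold change of 1.20 against -0.01 over all genes tested. Abcc3 had means of 38.7 ± 2.09 (normal) and 54.4 ± 17.3 FPKM (pro-inflammatory; SD, n = 5 each), a log2 fold change of 0.43 (95% interval 0.05 to 0.81, limma adjusted p = 0.245). Its two-sided exact permutation p was 0.00794, the smallest that 5 against 5 samples can give, and was not adjusted for other genes. Slc10a2 was at 3.92 ± 2.51 against 18.2 ± 20.0 FPKM (log2 fold change 1.28, 95% interval -0.36 to 2.92, limma adjusted p = 0.377). Slc51b was at 22.9 ± 6.50 against 76.7 ± 74.7 (1.12, interval -0.23 to 2.48, adjusted p = 0.353) and Nr1h4 at 26.8 ± 2.72 against 43.1 ± 21.7 (0.54, interval -0.06 to 1.14, adjusted p = 0.326). Fabp6 was at 36.1 ± 67.1 against 114 ± 169 FPKM (1.76, interval -0.89 to 4.41, adjusted p = 0.440) and Slc51a at 1.59 ± 3.12 against 40.0 ± 56.6 (1.93, interval -1.36 to 5.21, adjusted p = 0.490). The exact permutation p was between 0.135 and 0.413 for these 5 genes, and 1 for Fgf15, 0.143 for Nr0b2 and 0.484 for Gpbar1.

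The size of the diet difference depended on which pro-inflammatory diet libraries were kept. Without libraries 2 and 5, the log2 fold changes were 0.00 for Slc10a2, 0.17 for Fabp6, -0.67 for Slc51a, 0.04 for Slc51b, 0.06 for Nr1h4 and 0.14 for Abcc3 (limma adjusted p from 0.309 to 0.997). With Hoxb13 as a covariate they were 0.37, 0.51, -0.02, 0.29, 0.16 and 0.18 in the same order, and 0% of all genes passed. Abcc3 kept a positive interval under both settings, 0.00489 to 0.27 and 0.05 to 0.32. These intervals are not adjusted for other genes (limma adjusted p = 0.309 and 0.211). Under other settings the interval of Abcc3 stayed above 0 in some and reached below 0 in others. It reached below 0 with sample weights (-0.00893 to 0.51) and without pro-inflammatory diet library 5 (-0.04 to 0.77), for example. Without libraries 1 and 3, those with the high liver gene sums, 2 of the 3 libraries left on that diet were 2 and 5. The log2 fold changes were then 2.27 for Slc10a2, 2.91 for Fabp6, 3.68 for Slc51a, 1.73 for Slc51b, 0.90 for Nr1h4 and 0.63 for Abcc3 (limma adjusted p from 0.182 to 0.236, unadjusted p from 0.00523 to 0.0553). Without normal diet library 4 the log2 fold change of Fabp6 went from 1.76 to 2.66 (adjusted p = 0.161).

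**Figure D5:**
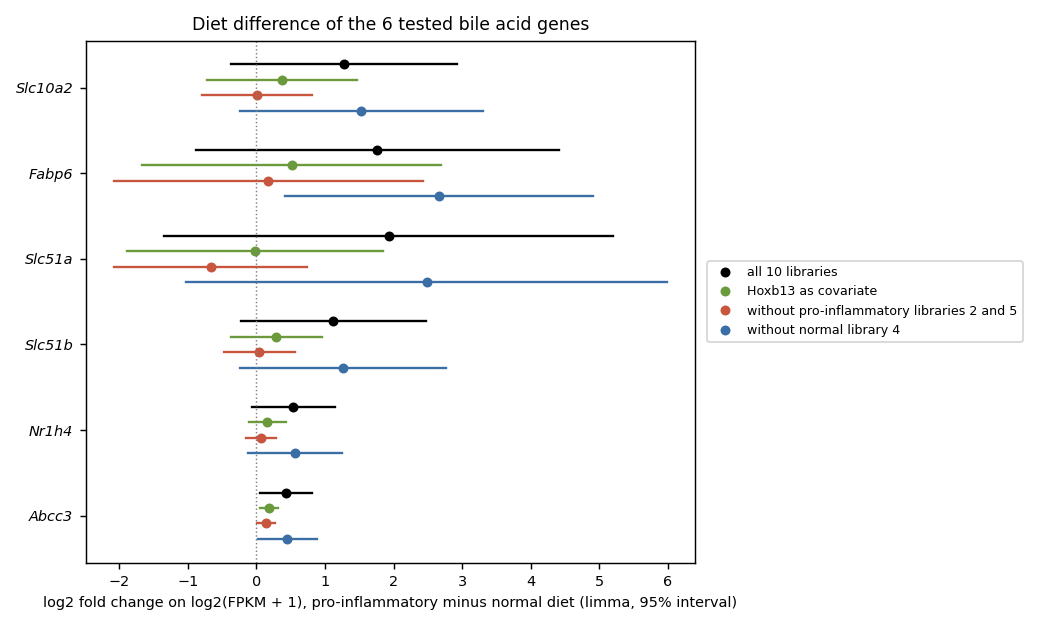
Log2 fold change of the 6 tested bile acid genes, pro-inflammatory minus normal diet, with limma's 95% interval, over all 10 libraries, with Hoxb13 as a covariate, without pro-inflammatory diet libraries 2 and 5 and without normal diet library 4. Without libraries 2 and 5 the values of Slc10a2, Slc51b and Nr1h4 are 0.00, 0.04 and 0.06.

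The genes of the whole table whose pattern over the 10 libraries was most like that of each member were taken by Pearson's correlation of log2(FPKM + 1), given as a description, since pro-inflammatory diet libraries 2 and 5 lie apart. For Slc51a these were Osr2, a transcription factor gene (r = 0.996), and the antimicrobial lectin genes Reg3g and Reg3b (0.985 and 0.985). Osr2 was at 66.1 and 49.0 FPKM in pro-inflammatory diet libraries 2 and 5, at 3.58 in normal diet library 4 and at 0.0669 to 0.337 in the other 7. For Slc10a2 they were Mall, Osr2 and Reg3b (0.978, 0.976 and 0.974), and for Slc51b Nts, encoding neurotensin, Hsd17b4, a peroxisomal enzyme of bile acid side-chain shortening, and Sct, encoding secretin (0.987, 0.986 and 0.986). Fabp6 was nearest to Naaladl1, a peptidase gene, Pold3 and Haus5 (0.973, 0.964 and 0.960). Naaladl1 was at 39.0 FPKM in normal diet library 4, between the 50.6 and 37.1 in pro-inflammatory diet libraries 2 and 5, and at 16.8 to 26.9 in the other 7. Nr1h4 was nearest to Gzmb, Nags and Capg (0.979, 0.979 and 0.971), and Abcc3 to Ak4, Kbtbd11 and Saa3 (0.977, 0.977 and 0.976). The most opposite genes were Hao2 for Slc10a2 (-0.990), Slc44a3 for Fabp6 (-0.964) and Bmt2 for Slc51b (-0.993).

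Other genes of the bile acid network were taken from 6 lists of 61 genes. Of these, 45 were tested, 29 with a higher and 16 with a lower mean on the pro-inflammatory diet, and 0 passed in limma, while 6 had an unadjusted p under 0.05 against 17.4% of all genes. Among 13 tested nuclear receptors and partners, 7 were higher and 6 lower (median log2 fold change 0.01). Rxra, the obligate partner of FXR, was at 19.4 ± 1.75 FPKM on the normal diet and 25.3 ± 4.79 on the other (SD, n = 5 each, log2 fold change 0.35, limma adjusted p = 0.197), and Ppara, a lipid-sensing receptor, at 2.35 ± 0.261 against 4.75 ± 2.94. Rxra was at 30.0 and 30.9 FPKM in pro-inflammatory diet libraries 2 and 5 and at 17.4 to 22.3 in the other 8. Of 8 tested genes of synthesis, conjugation and oxidation, 6 were higher (median 0.19). Scp2, a peroxisomal thiolase and sterol carrier, was at 55.8 ± 3.14 against 67.7 ± 6.79 FPKM (0.27, adjusted p = 0.173). Hsd3b7, an enzyme of sterol ring modification in bile acid synthesis, was at 16.9 ± 0.904 against 20.6 ± 2.30 (0.27, adjusted p = 0.173). For both, all 5 values of the pro-inflammatory diet lay above all 5 of the normal diet, as for Abcc3, but by a small margin. The lowest on that diet and the highest on the normal diet were 60.9 and 60.4 FPKM for Scp2, and 18.2 and 17.6 for Hsd3b7. Pro-inflammatory diet libraries 2 and 5 were highest, at 73.5 and 75.6 for Scp2 and 23.8 and 22.3 for Hsd3b7. The other 8 reached at most 67.4 and 19.6. Of all genes tested, 1.77% were separated in this direction, and both genes were named for having the smallest p of their list. Detoxification genes were higher in 6 of 7 (median 0.18), with Ugt1a1, a glucuronidating enzyme, reaching 27.3 and 28.4 FPKM in pro-inflammatory diet libraries 2 and 5 and 1.19 to 2.69 elsewhere (log2 fold change 1.41, adjusted p = 0.311), and Cyp3a11 with a log2 fold change of 1.09 (adjusted p = 0.404), carried by 9.04 and 6.68 FPKM in libraries 1 and 3 of that diet with at most 0.414 in the other 8.

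Among 6 tested genes of the other transporters, 4 were higher and 2 lower (median 0.07), with log2 fold changes of 0.45 for Slco4a1 and 0.14 for the efflux pump Abcb1a (limma adjusted p = 0.373 and 0.426). In the list of FGF15 pathway genes and surface receptors, 2 of 6 were higher and 4 lower (median -0.03). Chrm2, a muscarinic receptor of smooth muscle, was at 7.22 ± 0.981 and 4.06 ± 1.52 FPKM in that order of diets (log2 fold change -0.76, adjusted p = 0.173). Its values on the normal diet, 5.84 to 7.99 FPKM, all lay above those on the other, 1.67 to 5.17, and 2.07% of all genes were separated in this direction. The summed level of 6 of 6 smooth muscle markers ran from 2213 to 3354 FPKM on the normal and from 1917 to 2701 on the pro-inflammatory diet, with none at 0, and its part in the Chrm2 values was not tested. Malrd1, whose product promotes Fgf15 output in mice, had 5.80 and 5.72 FPKM in pro-inflammatory diet libraries 2 and 5 and 0.116 to 1.19 elsewhere. Klb, a co-receptor of FGF15 chosen after its values were seen, was at 0.375 and 0.305 in these 2 and at 1.41 to 3.69 in the rest. Of 5 tested lipid-binding relatives of Fabp6, 4 were higher (median 0.39), with log2 fold changes of 0.80 for Fabp4 of adipocytes and 1.10 for Fabp1 of liver and intestine (adjusted p = 0.327 and 0.595). Fabp1 was at 39.3 and 37.2 FPKM in pro-inflammatory diet libraries 1 and 3, the libraries with the high liver gene sums, and at most 7.53 in the other 8.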

How the data were processed

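The authors deposited 1 FPKM value per gene symbol and sample, scaled to gene length and library total. Per the labels' protocols, libraries were stranded mRNA libraries sequenced in pairs. Tools listed without roles in the submitters' processing notes are StringTie, Bowtie2, DESeq, Cufflinks, HISAT2, Trimmomatic and HTSeq, and the build is mm10. Strand use in counting: not given in the sources used here. The treatment label gave the groups and the title the replicate number.

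The genes and lists were chosen with earlier results of these data known. Reads were recovered as whole multiples within 0.001 read for 18398 of 18398 genes. Genes with a mean of at least 1 FPKM were tested on log2(FPKM + 1), a scale that understates the change of low genes, with limma 3.58.1 in R 4.3.3 (eBayes, mean trend), with Benjamini-Hochberg adjustment over 12345 genes at 0.05. Single genes also had a two-sided exact permutation test on the same scale over 252 splits. The read recovery and the limma test were tested on simulated data. Coordinates are GENCODE M21 (GRCm38, the assembly of mm10), 1-based. The genes named are all 9 members, Hoxb13, the 2 genes of smallest p per network list, and the 3 genes most correlated with each tested member, with the most opposite gene for Slc10a2, Fabp6 and Slc51b. Other genes named for 1 library, the liver list, 2 settings and the relation with diet means removed were picked with their values known. A relation over all 10 libraries had been foreseen unless a gap in log2 Hoxb13 exceeded a limit set by the range (3.958). The largest gap (3.949) just missed it, and the next was 3.27. Departing from that plan, the coefficient was left out because 2 libraries lie apart. The relations over the other 8 libraries, with their p-values, were added after Hoxb13 was seen. Alternatives changed the pseudocount (0.1 and 0.5), filter, scaling, variance model, weights, test, covariates or libraries. Figures were drawn with matplotlib 3.10.9.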

Additional observations from a re-analysis of the deposited data

Results flagged for a closer look

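In groups of 5 libraries, a library was listed when its gap to the nearest other one took up most of the group's range. For normally distributed values, chance gives this in about 1 in 20 groups. The gaps were taken on FPKM without a log scale and for several genes, so that rate need not hold here. Normal diet library 4 stood out with Fabp6 at 156 FPKM, Slc51a at 7.16 and Fgf15 at 2.54, the other 4 on that diet being at 3.81 to 7.81, 0 to 0.362 and 0. Pro-inflammatory diet library 2 stood out with Fabp6 at 405 FPKM, the other 4 being at 12.1 to 125.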

How the results depend on the processing

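Under each of 25 other settings, 2 of them chosen after seeing the data, 0 of the members and 0 of all genes tested passed, so no call depended on a setting. Directions turned for 3 members, none of them called. The log2 fold change of Slc51a, 1.93, went to -0.67 without pro-inflammatory diet libraries 2 and 5 and to -0.0171 with Hoxb13 as a covariate. Hoxb13 is itself lowest in these libraries. The difference in mean FPKM of Fgf15, -0.488, went to 0.0196 without normal diet library 4, and that of Gpbar1, -0.0865, to 0.00285 without pro-inflammatory diet libraries 2 and 5. Leaving out 1 library at a time, the log2 fold change ran from 0.79 to 1.70 for Slc10a2, 0.95 to 2.66 for Fabp6, 0.88 to 2.61 for Slc51a, 0.66 to 1.48 for Slc51b, 0.31 to 0.69 for Nr1h4 and 0.28 to 0.51 for Abcc3. Without pro-inflammatory diet libraries 2 and 5 and normal diet library 4 together, a setting added after seeing the data, Fabp6 had a log2 fold change of 1.08 (limma adjusted p = 0.0847). With the replicate block, 0 members passed and Abcc3 had an adjusted p of 0.338. Same-numbered samples of the 2 diets deviated with correlations of -0.263 to 0.0613, so the numbers were not taken to pair the samples. Depth limits Nr0b2 (15 reads in all), Gpbar1 (71) and Fgf15 (84).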

Other observations

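Some genes of bile acid synthesis that are best known from the liver were found at low levels in pro-inflammatory diet libraries 1 and 3. These libraries had the highest liver gene sums, and the genes were named after their values were seen. Cyp7a1, the rate-limiting enzyme of the classical pathway, was at 0.135 and 0.209 FPKM there, at 0.0301 in library 5 of that diet and at 0 in the other 7. Cyp8b1, the enzyme that sets the share of cholic acid, was at 0.289 and 0.363, at 0.0582 in normal diet library 4 and at 0 in the other 7. Slc10a1, the hepatic uptake transporter, was at 0.975 and 1.02 in libraries 1 and 3 against 0 to 0.0871 in the other 8. Slc27a5, the bile acid CoA ligase, was at 1.09 and 1.29 against 0 to 0.156, and Cyp3a11 at 9.04 and 6.68 against 0 to 0.414. Albumin (Alb) was at 97.3 and 100.4 FPKM in these libraries and at 0.166 to 8.45 in the other 8. The 9 members were not highest in libraries 1 and 3, apart from Nr0b2 (0.132 and 0.212 FPKM from 3 and 5 reads) and Gpbar1 in library 1 (0.627 from 11 reads).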
